A study of Mus musculus with 2 samples.

Results

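Of the 8226 peaks at which a Dnmt1-Dam fusion exceeded Dam alone in cleavage-stage mouse embryos, 2135 (25.95%, 95% interval 25.01 to 26.9) lay inside a gene body, in sequence with no annotated repeat and away from CpG islands. They were taken by the deposited annotation alone, and no height entered the choice. A member had no repeat class, the location class gene body and no island, shore or shelf entry. Of the 3492 gene body peaks, 61.1% (59.5 to 62.8) met all conditions. A further 1086 carried a repeat without island context, and 179 were repeat-free but lay in a CpG island (14), its shore (90) or its shelf (75). Every one of the 2135 positions fell between the start and end of its assigned gene, and 40 of them also lay inside another listed transcript accession. That accession can be another transcript of the same gene, so among listed genes the host is ambiguous for at most 40. Exon and intron boundaries were not used here, so a position inside a gene may be in an intron, a coding exon or an untranslated region.

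The data come from 2 libraries of genomic DNA. Zygotes of BCF1 (C57BL/6 x CBA/CA) mothers, superovulated at 5 weeks of age and mated, were cultured and received either a construct for Dnmt1 carrying a V5 tag and Dam, or one for Dam with no partner. Embryos were collected at the 4- to 8-cell stage, and 50 were pooled for each construct, so that each group is 1 library and no spread between replicates exists. Both groups share the strain, the stage and the injection, and the amounts of fusion and of free Dam per embryo are not given in the labels.

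Dam is a bacterial methyltransferase that marks the adenine of GATC, and in DamID it leaves that mark where its fusion partner has been. Dnmt1 copies cytosine methylation onto the new strand after replication, and its oocyte form is carried into the early embryo while methylation of most of the genome declines. Bodies of transcribed genes are commonly methylated in mammals, in contrast to CpG islands at gene starts, and a repeat-free peak in a body cannot be assigned to a transposable element of that position. A peak needs GATC sites nearby, and the density of GATC was not analysed here, since no genome of the build of the files was at hand.

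The members were spread over long stretches of gene. Their median distance from the start site was 53.7 kb (49.4 to 58.3), and the middle 50% lay between 18.0 and 148 kb. The nearest was 1.004 kb downstream of the start and the farthest 1716 kb. By definition the class begins 1 kb after the start site, because the file calls the first kb proximal promoter. Relative positions were therefore measured over the available body, from 1 kb after the start to the gene end, read along the strand of the gene.

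Relative to an even spread, repeat-free peaks were fewer at the front of genes and more numerous at the back. The first 20% of the available body held 331 members (15.5%, 13.99 to 17.1) and the last 20% 519 (24.3%, 22.5 to 26.2), where an even spread would give 20% each. In the first 10% lay 7.31% (6.24 to 8.49) and in the last 10% 12.5% (11.1 to 13.9). The median relative position was 54.5% of the way to the gene end (52.7 to 57.3). Gene body peaks that carry a repeat ran the other way. The first 20% held 23.5% of them and the last 20% held 15.8%, and their median position was 45.7% (42.9 to 49.3).

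The difference between the classes was larger than counting error. The last 20% held 8.47 percentage points more of the repeat-free than of the repeat-bearing peaks (95% Newcombe interval 5.57 to 11.2), with the repeat-free share above the repeat-bearing one on 16 of 19 autosomes. In the first 20% the repeat-free share was lower by 7.98 points (difference -7.98, -11.0 to -5.07), and on 14 of 19 autosomes. These intervals treat peaks as independent, which close neighbours are not. With 1 peak kept per run of peaks within 1 kb, the differences were 7.74 points (4.75 to 10.6) at the end and -7.76 points (-10.9 to -4.77) at the front.

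**Figure D1:**
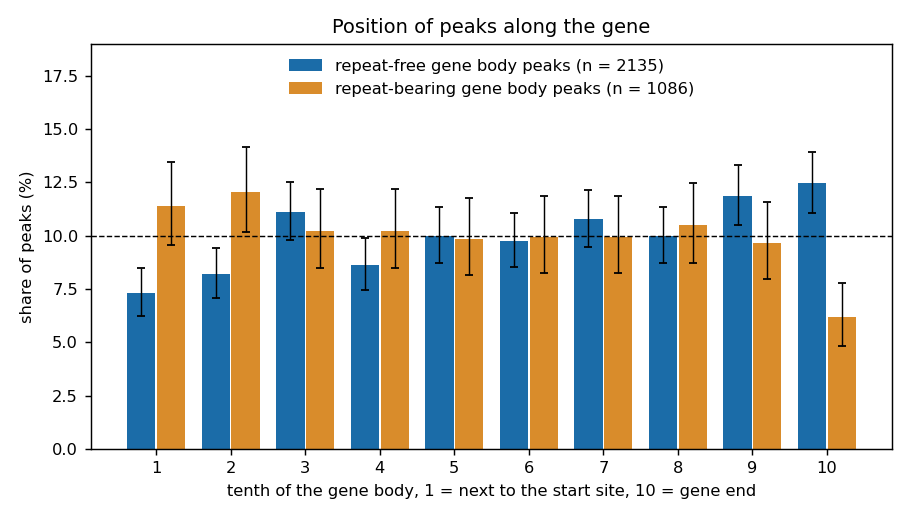
Share of peaks (%) in each of 10 equal steps of the available gene body, from the start site (1) to the gene end (10), for the 2135 repeat-free and the 1086 repeat-bearing gene body peaks. Bars are shares, lines are exact 95% intervals and the dashed line is the even share of 10%. Repeat-free peaks go up to 12.5% in the last 10%, where repeat-bearing peaks have 6.17%.

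Each major repeat class differed from the members in the same direction. In the last 20% lay 24.3% of the members, against 16.2% of 585 SINE peaks, 16.6% of 229 LTR peaks and 14.5% of 179 LINE peaks of gene bodies. The intervals of these 3 differences excluded 0, at 4.41 to 11.4 points for SINEs, 2.07 to 12.4 for LTR elements and 3.62 to 14.6 for LINEs. LINEs are retrotransposons without long terminal repeats, SINEs are short elements that depend on LINE enzymes to move, and LTR elements are endogenous retroviruses and their kin. Among the peaks of a stretch, the share of island-free body peaks that were repeat-free was 55.7% (49.7 to 61.6) in the first 10% of the body and 79.9% (75.2 to 84.1) in the last 10%. Within 2 kb of the gene end it reached 83.2% (76.2 to 88.8; 124 of 149 peaks), and elsewhere in the body it was 65.5% (63.8 to 67.1). How much of each stretch is repeat sequence was not measured, so these shares are no enrichment.

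The tilt toward the gene end was present on genes of either strand. On genes of the plus strand 23.9% of 1054 members lay in the last 20% and 15.4% in the first 20%, and on genes of the minus strand 24.7% of 1081 lay in the last 20% and 15.6% in the first 20%. The last share exceeded the first in each length class, with the last 20% at 23.6% in genes under 20 kb, 23.3% at 20 to 50 kb, 28.1% at 50 to 100 kb, 24.8% at 100 to 200 kb and 22.9% in longer genes. In genes of 100 to 200 kb the first 20% was not short of peaks, at 20.8% (17.0 to 25.1), and in genes under 20 kb, at 20 to 50 kb and at 200 kb or more the interval of the last 20% contained 20%. Chromosome by chromosome, the last 20% held more members than the first 20% on 15 of 19 autosomes, with 1 tie. Of the 194 members that reached a height of 15, 28.9% (22.6 to 35.8) lay in the last 20% and 17.5% (12.5 to 23.6) in the first 20%. For these high members the margin was wider on plus strand genes, but the counts are small and a difference between strands was not tested. On plus strand genes 36 lay in the last 20% and 18 in the first 20%, and on minus strand genes 20 and 16.

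Gene edges were also counted without regard to which gene a peak had been assigned to. This count used genes of at least 10 kb that were listed through a peak more than 10 kb from the edge in question, so that the window itself did not bring the gene into the table. Genes were taken as transcript accessions. An edge shared by several accessions, and each peak near it, was counted once per accession, which the intervals do not allow for. Around 3486 gene ends so counted, repeat-free peaks numbered 117 within 5 kb on either side, against 57 around 3433 gene starts. The ratio per gene was 2.02 (1.46 to 2.83). With 1 peak per run the ratio was 1.90 (1.36 to 2.67), and with peaks in CpG island context added it was 1.94 (1.43 to 2.66). Repeat-bearing peaks numbered 38 around the ends and 49 around the starts, with a ratio of 0.764 (0.486 to 1.19). Of the 117, 59 lay in the last 5 kb of the genes and 58 in the 5 kb past them (ratio 1.02, 0.696 to 1.49), so they stood on either side of the end.

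**Figure D2:**
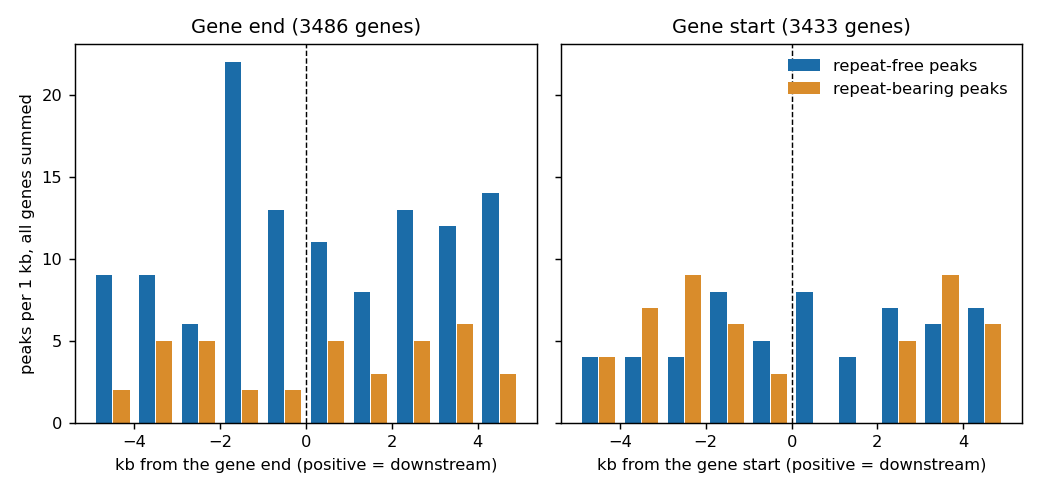
Peaks per 1 kb, summed over genes taken as transcript accessions, around the gene end (left, 3486 genes) and the gene start (right, 3433 genes). The horizontal axis gives kb from the edge, with downstream to the right. Repeat-free peaks are more numerous on either side of the end (59 inside and 58 past it) than around the start (57 in all), and the highest bar, 22 peaks, lies 1 to 2 kb before the end.

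The peaks nearest to the edges illustrate the range of hosts. Arfgap1, a GTPase-activating protein of Golgi traffic, had a member 56 bp before its end (chromosome 2, 180717091, mm9), with a height of 16 in Dnmt1-Dam and 1 in Dam-only. Acy1, an aminoacylase gene, had one at 64 bp (chromosome 9, 106335391; 11 in Dnmt1-Dam and 2 in Dam-only), and Alk, a receptor tyrosine kinase gene of 735 kb, one at 73 bp (chromosome 17, 72218401; 11 and 1). Listed positions thus fell next to the gene end in a gene of 5.24 kb as in one of 735 kb. Each position is a single coordinate without a peak width. On which side of the end the signal lies is therefore not resolved at such distances. At the front, the members just inside the 1 kb limit were in Cndp2, a dipeptidase gene (1004 bp; 21 in Dnmt1-Dam and 1 in Dam-only), Lipc, the hepatic lipase gene (1004 bp; 13 and 1), and Gm12250 (1016 bp; 8 and 1). Just outside it, and classed as proximal promoter, were repeat-free peaks of Hyal4, a hyaluronidase-family gene (994 bp; 7 and 1), Dnah5, a dynein heavy chain gene of cilia (970 bp; 10 and 1), and Tmem185b (927 bp; 23 and 7). Heights on either side of the limit overlapped.

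Peak heights, the authors' whole-number signal in each library, were low, and their distributions differed little between classes. The members had a median Dnmt1-Dam height of 9 (interquartile range 7 to 11, highest 48) and a median Dam-only height of 1 (highest 9). The lower quartile of 7 is the lowest height of any listed peak, and 552 members (25.9%, 24.0 to 27.8) had it. So did 26.9% (24.3 to 29.6) of repeat-bearing gene body peaks and 29.1% (27.2 to 31.0) of repeat-free intergenic peaks. Every listed peak was selected for a higher Dnmt1-Dam than Dam-only height, so the difference between the libraries at a member is a condition of the list and no finding. A height of 15 or more was reached by 194 members (9.09%, 7.90 to 10.4), where the background over all peaks was 8.66%. It was reached by 9.30% (7.64 to 11.2) of repeat-bearing gene body peaks and by 8.46% (7.34 to 9.70) of repeat-free intergenic peaks. The differences of the members from these classes were -0.21 points (-2.41 to 1.83) and 0.62 points (-1.06 to 2.31), both within counting error. A ratio of at least 10 between the heights occurred at 489 members (22.9%, 21.1 to 24.7), against a background of 23.4%.

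In the Dam-only library the members stood slightly above intergenic repeat-free peaks. A Dam-only height over 1 was found at 555 members (26%, 24.1 to 27.9), against 489 of 2233 repeat-free intergenic peaks (21.9%, 20.2 to 23.7). The difference was 4.10 points (1.57 to 6.63), 3.76 points (1.12 to 6.39) with 1 peak per run, and the share was higher for members on 17 of 19 autosomes. It did not extend to larger values, since 12.04% of members and 11.2% of the intergenic peaks had a Dam-only height of 3 or more (difference 0.80 points, -1.11 to 2.71). Against repeat-bearing gene body peaks, of which 23.2% exceeded 1, the interval included 0 (2.79 points, -0.38 to 5.86). The part of GATC density in this difference was not tested. Over gene lengths the share ran between 28.4% (22.6 to 34.8) in genes under 20 kb and 22.1% (17.4 to 27.5) in genes of 500 kb or more, with overlapping intervals.

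**Figure D3:**
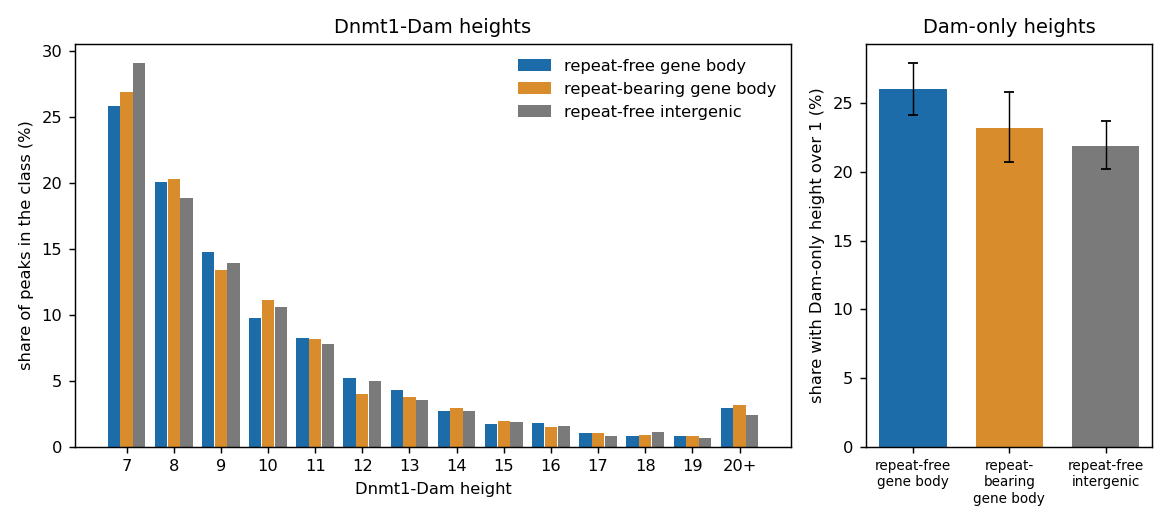
Left, share of peaks (%) at each Dnmt1-Dam height for repeat-free gene body peaks, repeat-bearing gene body peaks and repeat-free intergenic peaks, with heights of 20 or more pooled. Right, share of each class with a Dam-only height over 1 (bars, with exact 95% intervals), at 26%, 23.2% and 21.9%. The share at height 7 is 25.9%, 26.9% and 29.1%.

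The highest members lay in genes of unrelated kinds. Cpeb3, which binds messenger RNA to control its translation, held the highest, on chromosome 19 at 37277201, 4.58 kb into a gene of 186 kb, with 48 in Dnmt1-Dam and 5 in Dam-only. Zfp607a, a zinc finger gene named Zfp607 in the file, followed on chromosome 7 at 28649501, with 47 in Dnmt1-Dam and 1 in Dam-only. Ush1c, which encodes the hair cell scaffold harmonin, had 36 in Dnmt1-Dam and 1 in Dam-only on chromosome 7 at 53460461, 33.4 kb into 43.1 kb. The Dam-only height of Cpeb3 is above the class median of 1, and those of Zfp607a and Ush1c are at it.

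The next members were at 33 or below. Bace1, the beta-secretase that cleaves the amyloid precursor protein, had 33 in Dnmt1-Dam and 1 in Dam-only on chromosome 9 at 45665431, and Gm6981 had the same pair of heights at 51833681 of that chromosome. Dok6, an adaptor of receptor tyrosine kinases on chromosome 18 (89629141), had 32 in Dnmt1-Dam and 3 in Dam-only. After these came Mctp2 (30 in Dnmt1-Dam and 1 in Dam-only; chromosome 7, 79261111), Dcaf7, a WD-repeat adaptor (28 and 1; chromosome 11, 105908231), and Gpn1, a GTPase of RNA polymerase II import (27 and 8; chromosome 5, 31811761). Their places along the gene ran from 1.94% (Cpeb3) to 85.9% (Gpn1) of the available body. No source names a treatment of duplicate reads, so heights alone do not rank positions by Dnmt1 occupancy.

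Of the members, 10 had a Dam-only height of 7 or more, and they lay between 24.3% and 92.1% of the body, 5 of them in the last 20%. Dyrk1a, a kinase gene, had the highest Dam-only value, with 21 in Dnmt1-Dam and 9 in Dam-only on chromosome 16 at 94902801, 88.4% along the body. Hhatl, which encodes an acyltransferase-like protein, had 17 in Dnmt1-Dam and 8 in Dam-only at 92.1%. Blnk, a B-cell adaptor gene, had 22 in Dnmt1-Dam and 7 in Dam-only at 83.8%, and Rnf41, a ubiquitin ligase gene, had 18 in Dnmt1-Dam and 7 in Dam-only at 79.1%. Gpn1, with 27 in Dnmt1-Dam and 8 in Dam-only, lay at 85.9%. Blnk and Rnf41 are named before 5 others at the same Dam-only height by their higher Dnmt1-Dam height. Among those 5, named after their values were seen, Ank2, an ankyrin gene, had 17 in Dnmt1-Dam and 7 in Dam-only at 24.3%. Over all members the share with a Dam-only height over 1 was 26.4% (22.7 to 30.4) in the last 20% and 27.8% (23.0 to 33.0) in the first 20%, with overlapping intervals.

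The 2135 members fell into 1596 genes by transcript accession. Their median length was 93.4 kb (87.0 to 100.2), with a middle 50% from 37.2 to 219 kb. Genes listed through peaks outside the body alone had a median of 21.4 kb (20.01 to 22.6; 2453 genes), and genes with a repeat-bearing body peak had 95.7 kb (85.8 to 106), within the interval of the members' hosts. Of the members, 56.0% (53.8 to 58.1) lay in genes of 100 kb or more.

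Per Mb of body, genes of 100 kb or more did not differ detectably from shorter ones, while the longest of 6 length classes had the lowest value. To avoid genes that entered the table through a body peak, the density was taken over the 2985 genes that also had a peak outside the body. These comprised 241 Mb of body with 569 members, or 2.36 per Mb (2.17 to 2.56). Body length here is that of the whole gene. It includes the first kb, which cannot hold a member and which lowers the density most in short genes. In genes of 100 kb or more it was 2.37 per Mb (2.15 to 2.60) and in shorter genes 2.34 (1.98 to 2.75), a ratio of 1.01 (0.835 to 1.23). Of 6 length classes, genes under 20 kb had the highest value, 2.90 per Mb (1.92 to 4.19), and genes of 500 kb or more the lowest, 1.91 (1.57 to 2.30). Genes of 500 kb or more had 0.761 times (0.614 to 0.938) the density of all shorter ones, which had 2.51 per Mb (2.28 to 2.75). This limit was chosen after the values were seen, and the interval does not allow for that choice. At planned limits of 50 and 200 kb the intervals of the ratio included 1, at 0.911 (0.721 to 1.16) and 0.887 (0.750 to 1.05). Among the 2985 genes, the share with at least 1 member was 2.23% under 20 kb and 69.4% at 500 kb or more.

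**Figure D4:**
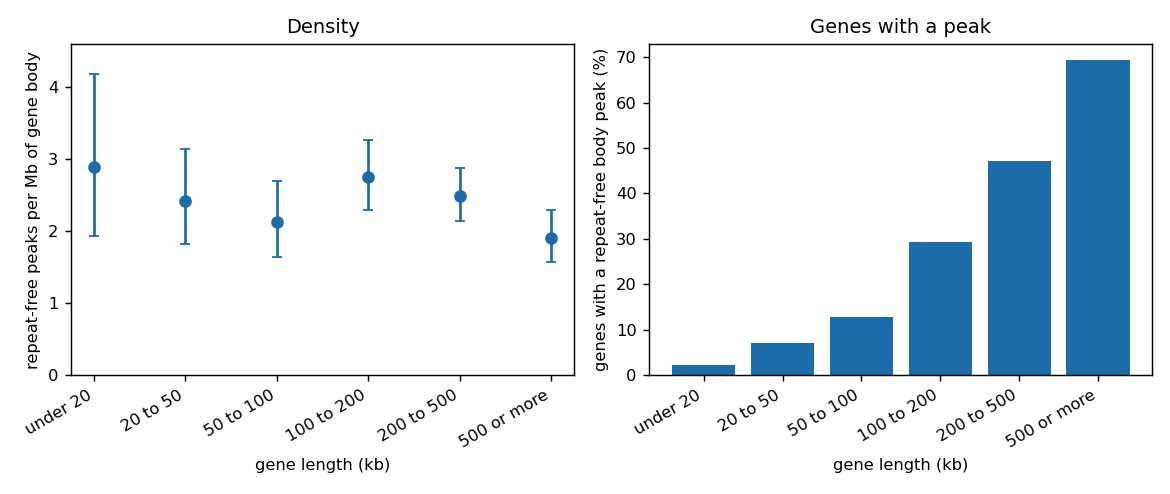
Left, repeat-free peaks per Mb of gene body (whole gene, first kb included) by gene length (kb), with exact 95% Poisson intervals, over the 2985 genes that also have a peak outside the body. Right, share (%) of those genes with at least 1 repeat-free body peak; densities lie between 1.91 and 2.90 per Mb, and the share is 2.23% in the shortest class and 69.4% in the longest.

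Hosts ranged from very short to very long genes. Rraga, a small GTPase gene of nutrient signalling, is 1.60 kb long and held a pair, at 1.02 and 1.13 kb from its start (chromosome 4, 86222611 and 86222721), with 9 at both in Dnmt1-Dam against 2 and 1 in Dam-only. Mc4r, the melanocortin receptor of appetite control, had 1 of 8 in Dnmt1-Dam and 1 in Dam-only in 2.77 kb. Msx3, a homeobox gene of the dorsal neural tube, had 10 in Dnmt1-Dam, and Rskr, a kinase gene, and Hes2, a helix-loop-helix repressor gene, had 7 each, with 1 in Dam-only at all of them. At the other end, Dmd, the dystrophin gene of chromosome X, spans 2256 kb and held 3 members of 7, 7 and 9 in Dnmt1-Dam, against 1, 1 and 2 in Dam-only. Cntnap2, a neurexin-family adhesion gene of 2241 kb, held 3 of 7, 11 and 15 in Dnmt1-Dam, against 1, 1 and 3 in Dam-only. Lrp1b and Csmd1 held 1 each, of 8 and 7 in Dnmt1-Dam with 1 in Dam-only at both, and Macrod2 held a pair, of 7 and 9 in Dnmt1-Dam with 1 in Dam-only at both.

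Most hosts had a single member. It was 1 in 1216 genes and 2 or more in 380 (23.8%, 21.7 to 25.98), of which 106 had 3 or more and 12 had 5 or more. Part of this multiplicity came from close pairs: when members within 1 kb are counted as 1, 317 genes (19.9%, 17.9 to 21.9) kept 2 or more, and in 63 genes all members merged into 1 run. Length separated these genes too, with medians of 72.5 kb (65.1 to 79.0) for 1 member, 166 kb (134 to 202) for 2 and 392 kb (314 to 485) for 3 or more. For 1002 genes the members were the only peaks of any kind assigned to them.

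The 12 genes with 5 or more members span 97.6 to 1088 kb, and 10 are described here, with ties at 5 members broken by summed Dnmt1-Dam height. The 2 left out by the tie are Stx18 and Car10. Cdh13 encodes a cadherin anchored in the membrane by a lipid, spans 1040 kb of chromosome 8 (120807655 to 121847348) and held 7. From the start to the end of Cdh13 the Dnmt1-Dam heights were 7, 9, 14, 9, 12, 16 and 7, against 1, 1, 4, 2, 3, 4 and 1 in Dam-only. At this gene the higher Dnmt1-Dam positions were also those with more Dam-only signal, which is not particular to it. Over the class, a Dam-only height of 1 was found at 74.0% of all members and at 60.3% of those of height 9 or more. No listed peak had a ratio of the heights under 2, which limits the Dam-only height at low Dnmt1-Dam heights. Tenm2, an adhesion receptor of synapses (named Odz2 in the file; chromosome 11, 35820171 to 36757745), also held 7, with 7, 7, 8, 9, 12, 7 and 7 in Dnmt1-Dam against 1, 1, 1, 1, 6, 1 and 1 in Dam-only. All 7 body peaks of Tenm2 were free of repeats.

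Ptprd, a receptor phosphatase gene of chromosome 4 (75587143 to 76240203), held 6 in the later part of its body, between 55.6% and 97.9%. Their heights were 8, 9, 7, 8, 26 and 7 in Dnmt1-Dam, and 1 at all 6 in Dam-only. In runs the members of Ptprd were 5 places. Asic2, an acid-sensing ion channel gene (named Accn1 in the file; chromosome 11, 80693667 to 81781898), held 6 in its earlier part, between 10.1% and 52.7%. These had 7, 10, 11, 8, 8 and 8 in Dnmt1-Dam, against 1, 4, 1, 1, 1 and 1 in Dam-only. The 2 genes thus had their members in opposite parts of the body, and neither gene alone shows where the class lies.

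Each of the other genes described had 5 members. Igf1r, the receptor of insulin-like growth factor 1 on chromosome 7 (75097143 to 75378553), had 7, 18, 7, 9 and 9 in Dnmt1-Dam and 1 at all 5 in Dam-only, and no other peak. Its density was 17.8 members per Mb of body. Nfib, a transcription factor gene of lung and brain development (chromosome 4, 81936077 to 82151212), had 11, 11, 13, 7 and 9 in Dnmt1-Dam against 1, 1, 1, 1 and 2 in Dam-only. The first 3 members of Nfib lie within 1 kb of each other and count as 1 run, so its 5 members are 3 separate places. Camta1, a calmodulin-binding transcription activator gene (chromosome 4, 150433635 to 151235855), had 7, 21, 11, 11 and 10 in Dnmt1-Dam against 1, 4, 3, 2 and 1 in Dam-only.

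St6galnac3, a sialyltransferase gene of chromosome 3 (152865473 to 153388097), had 9, 22, 21, 8 and 8 in Dnmt1-Dam against 1, 1, 2, 2 and 1 in Dam-only. Ptprm, a receptor phosphatase gene of cell contacts (chromosome 17, 67016883 to 67703727), had 9, 9, 9, 9 and 11 in Dnmt1-Dam against 1, 1, 2, 1 and 1 in Dam-only. Slc39a11, a zinc transporter gene (chromosome 11, 113106169 to 113427075), had 9, 7, 9, 12 and 11 in Dnmt1-Dam against 2, 1, 1, 3 and 1 in Dam-only. In runs these were 4 places for St6galnac3, 4 for Ptprm and 3 for Slc39a11.

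**Figure D5:**
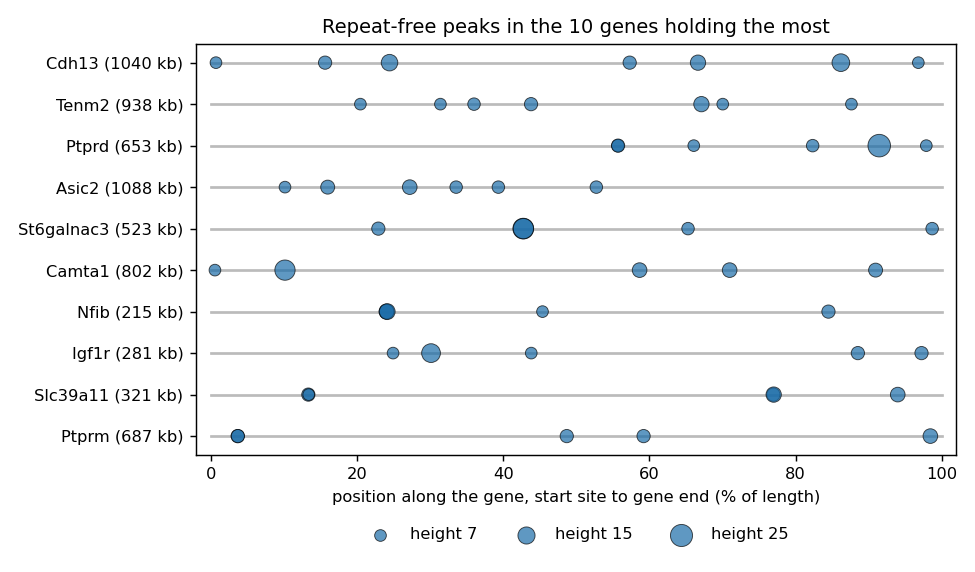
Position of each repeat-free peak along the 10 genes with the most members (of 8 genes tied at 5 members, the 6 with the largest summed height), from start site (0%) to gene end (100%), with the size of a point proportional to its Dnmt1-Dam height and darker points where close peaks overlap. In Ptprd the peaks lie between 55.6% and 97.9% of the available body, and in Asic2 between 10.1% and 52.7%.

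Some neighbouring members lay very close together. A member had another one within 200 bp before it in 107 cases (5.01%), while 11 gaps lay between 200 bp and 1 kb and 46 between 1 and 10 kb. Among the close pairs the median gap was 110 bp (interquartile range 90 to 130, from 70 to 190), and all 107 pairs were in 1 gene each. The Dnmt1-Dam heights within a pair differed by a median of 2 (interquartile range 1 to 3, at most 12). Most heights in the class lie just above the lowest value of 7, so a small difference shows no likeness particular to pairs. A height of 15 was reached by members in a close pair at 15.9% (11.2 to 21.6) of 208 against 8.35% (7.16 to 9.68) of the 1927 others, a difference of 7.51 points (2.97 to 13.2) that counts both members of a pair. With only the first member of each run by coordinate, the shares were 13.9% (7.79 to 22.2) in runs with a close pair and 8.30% (7.10 to 9.62) in the 1916 others, and the interval of the difference included 0 (5.56 points, -0.017 to 13.7).

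The highest such pairs were in Dcaf7, Atad2b and St6galnac3. In Dcaf7 the pair lay 90 bp apart, with 26 and 28 in Dnmt1-Dam against 2 and 1 in Dam-only. In Atad2b, a bromodomain ATPase gene of chromosome 12, it lay 100 bp apart (5052381 and 5052481), with 23 and 25 in Dnmt1-Dam against 4 and 1 in Dam-only. The Atad2b pair was at 98.6% and 98.7% of the body, 1.84 and 1.74 kb before the gene end. Fragments were selected around 300 bp, per the labels, which is longer than the gap of every close pair.

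Among 10 groups of genes, the share of genes with a member was highest in those with the longest genes. A repeat-free body peak was present in 1575 of 21035 genes with a curated messenger RNA (7.49%). Of 42 genes for cell and synaptic adhesion, 30 had one (71.4%, 55.4 to 84.3), and the median length of the group's genes with any peak was 755 kb. The 75 members in this group had a median Dnmt1-Dam height of 9 (7 to 26). Their density, over group genes that also had a peak outside the body, was 2.39 per Mb (1.72 to 3.25), against 2.36 over all such genes. For this group, then, the share of genes stood far above the background and the density per Mb did not.

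Ion channels and transmitter receptors gave 23 of 39 (59.0%, 42.1 to 74.4), at 2.23 per Mb (1.34 to 3.48). Kcnma1, a calcium-activated potassium channel gene, held 4 members of 10, 7, 9 and 8 in Dnmt1-Dam and 1 in Dam-only. Grin2a, an NMDA receptor subunit gene, held 3 of 15, 9 and 16 in Dnmt1-Dam against 1, 1 and 7 in Dam-only. The members of 9 and 16 in Grin2a lie within 200 bp of each other and count as 1 run. Cacna2d3, an auxiliary calcium channel subunit gene, held 3 of 8, 12 and 8 in Dnmt1-Dam and 1 in Dam-only. Axon guidance genes gave 18 of 33 (54.5%, 36.4 to 71.9), at 2.63 per Mb (1.47 to 4.34). There Epha6, an ephrin receptor gene, held 3 members of 10, 21 and 7 in Dnmt1-Dam and 1 in Dam-only, all in the last 20% of its body. Sema5a, a semaphorin gene, held 3 of 10, 8 and 8 in Dnmt1-Dam with 1 in Dam-only, and Plxna4, a semaphorin receptor gene, 3 of 7, 10 and 7 in Dnmt1-Dam against 1, 2 and 1 in Dam-only.

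Cytoskeletal genes and regulators of small GTPases gave 22 of 40 (55.0%, 38.5 to 70.7), at 3.13 per Mb (1.62 to 5.47). Besides Dmd, these included Dst, a cytoskeletal linker gene, with 3 members of 7, 13 and 7 in Dnmt1-Dam and 1 in Dam-only. Arhgap24 had 3 of 12, 7 and 14 in Dnmt1-Dam against 1, 1 and 2 in Dam-only. Intracellular signalling enzymes gave 20 of 40 (50.0%, 33.8 to 66.2), at 1.47 per Mb (0.758 to 2.56). Prkce, a protein kinase C gene, held 4 of 10, 7, 7 and 7 in Dnmt1-Dam with 1 in Dam-only, and Prkg1, the cGMP-dependent kinase gene, 4 of 10, 9, 10 and 14 in Dnmt1-Dam with 1 in Dam-only. Long genes of transcription regulators gave 21 of 40 (52.5%, 36.1 to 68.5), at 3.10 per Mb (2.06 to 4.48). Tox, which encodes a factor of T-cell development, held 3 of 10, 7 and 13 in Dnmt1-Dam against 2, 1 and 1 in Dam-only. The intervals of all 6 groups contained the density of 2.36 per Mb.

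In 3 groups of shorter genes the interval contained the background of 7.49%. DNA methylation and chromatin genes had a member in 7 of 50 (14%, 5.82 to 26.7). Hdac4, a histone deacetylase gene, held 3 within 2 kb of its end, of 9, 8 and 7 in Dnmt1-Dam with 1 in Dam-only. These 3 lie within 1 kb of each other and count as 1 run. Smarca2 and Smarca4, the alternative ATPases of the SWI/SNF remodeller, had 1 each, of 18 in Dnmt1-Dam and 2 in Dam-only at Smarca2, and of 11 in Dnmt1-Dam and 1 in Dam-only at Smarca4. Dnmt3a, the de novo methyltransferase gene, was picked out after its values had been seen and had 1 of 7 in Dnmt1-Dam and 1 in Dam-only, 8.56 kb from its start. A height of 7 is the lowest in the table.

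Genes of pluripotency and the first lineages had a member in 4 of 32 (12.5%, 3.51 to 29.0). Klf5, a factor of the blastocyst, had 19 in Dnmt1-Dam and 4 in Dam-only, 1.35 kb from its start. Esrrb, a nuclear receptor gene of pluripotent cells, had 11 in Dnmt1-Dam, Nr5a2, a nuclear receptor gene of the early embryo, had 9, and Tead4, a factor of the trophectoderm, had 7, with 1 in Dam-only at each. Imprinted genes gave 5 of 45 (11.1%, 3.71 to 24.1). These were Trappc9 (7 and 13 in Dnmt1-Dam, 1 at both in Dam-only), Igf2r, the clearance receptor of insulin-like growth factor 2 (12 in Dnmt1-Dam, 1 in Dam-only), Ppp1r9a (12 in Dnmt1-Dam, 4 in Dam-only), Peg3, a paternally expressed zinc finger gene (11 in Dnmt1-Dam, 1 in Dam-only), and the amino acid transporter gene Slc38a4 (7 in Dnmt1-Dam, 1 in Dam-only). Tead4, Peg3 and Slc38a4 were named because the groups are small, after their values had been seen. None of 25 housekeeping genes had one (0%, up to 13.7%), and the interval contains the background. No test of these groups was made, and the groups were chosen with earlier results of these data known.

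Members were scarcer on the X than on the autosomes. They numbered 45 on the X, or 0.270 per Mb (0.197 to 0.362), and 2090 on the autosomes, or 0.847 per Mb (0.811 to 0.884), a ratio of 0.319 (0.232 to 0.429). Autosomal densities ran between 0.528 per Mb on chromosome 3 and 1.203 on chromosome 11, and the intervals of 13 of 19 contained the autosomal mean. Of all gene body peaks, members were 45 of 75 on the X (interval 48.0 to 71.1%) and 61.2% (59.5 to 62.8) on the autosomes. Per Mb of body, in genes that also had a peak outside it, the X had 1.01 (4 members) and the autosomes 2.39, a ratio of 0.423 whose interval (0.115 to 1.09) includes 1. The sex of the pooled embryos is not given in the labels.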

How the data were processed

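Genomic DNA of 2 libraries was analysed from the deposited peak table. BWA and CASAVA, and the build mm9, are named in the submitters' processing notes without versions. Per the labels' protocols, libraries had 15 PCR cycles and fragments around 300 bp. The sources used here name no peak caller, threshold, treatment of duplicates or depth. The deposited signal is 1 whole-number height per peak and library, with no peak width. It was treated as signal, not as read counts, and no count model was used.

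Members were the rows with no repeat, class gene body and no island context. Shares have exact Clopper-Pearson intervals, densities and their ratios exact Poisson and conditional intervals, medians order-statistic intervals and differences of shares Newcombe intervals, all at 95% (Python 3.11.15, scipy 1.17.1, statsmodels 0.14.6). They cover counting error only, and no p-value was computed with 1 library per group. Functions were tested on simulated data. Symbols were matched for 1591 of 1596 accessions in a RefSeq gene table of GRCm38.p6, used for names only. The members and gene lists were chosen with earlier results of these data known. Named genes were those with the highest Dnmt1-Dam or Dam-only heights, the most members, the extreme lengths, the positions nearest to an edge, the highest pairs within 200 bp and the leading genes of each list, with ties broken by Dnmt1-Dam height. A gene that this rule names is not reported here.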

Additional observations from a re-analysis of the deposited data

How the results depend on the processing

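Of 63 alternative values for 12 results, 42 lay within the interval of the reported value (for the gene count, within 1.5 times) and 21 did not; unless stated, the cause was not tested. The first 20% stayed under and the last 20% over 20% in 9 of 9 settings. With height 15 or more these shares were 17.5% and 28.9%, and with the whole gene as the body the first 20% held 13.9%, since the first kb then counts but cannot hold a member. Including CpG island context, added for the position results after the data had been seen, raised the repeat-free share of gene body peaks to 66.3%. Median host length was 104 kb at height 9 or more, 120.3 kb at 15 or more, 101.96 kb at a Dam-only height of 1 and 118 kb with each member counted once. The number of host genes was 943 at height 9 or more and 177 at 15 or more, because fewer peaks remain, and the share of them with 2 or more members was 18.0% and 9.04%. That share was 19.7% with 1 peak per run and 19.6% at a Dam-only height of 1. The share of height 15 or more was 6.96% at a Dam-only height of 1, and the share at that Dam-only height was 74.0% for all members and 60.3% at height 9 or more. The log2 ratio of the heights was taken with a pseudocount of 1 and Dam-only heights scaled to the Dnmt1-Dam sum over all peaks. This scaling makes the sums of the 2 libraries equal over the listed peaks, so it draws the median toward 0. The scaled ratio therefore does not measure the excess of Dnmt1-Dam over Dam-only. Its median was 0.05 (0.045 to 0.215) at the members and 0.21 (0.045 to 0.215) over all peaks, so the intervals do not separate them. The median at the members was 0.37 at height 9 or more, 0.035 with a pseudocount of 10 and 2.17 without scaling. The X to autosome ratio per gene body peak was 0.981. With only peaks of height 15 or more, which also narrows the genes to those with such a peak outside the body, the density ratio of long to short genes had no value, as those genes held no member under 100 kb. With the genes kept as reported, a choice made after seeing the data, it was 0.710 (0.378 to 1.38). Unknown depth limits all heights. No paired analysis was possible because each group is 1 library.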

Other observations

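The 179 repeat-free gene body peaks in CpG island context, which the class leaves out, also lay more often near the gene end. In the first 20% of the available body lay 13.97% (9.25 to 19.9) of them, and in the last 20% 29.1% (22.5 to 36.3). Their median distance from the start site was 30.7 kb. A height of 15 or more was reached by 9.09% of the peaks without island context and by 8 of those with it (4.47%, 1.95 to 8.62), the highest at 24. Inside islands proper there were 14, with heights up to 12 and a Dam-only height over 1 at 2.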
